A study of Danio rerio with 58 samples.

Results

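Single cells with 5 or more runx1 reads made up 5 of the 18 cells that were picked from the floor of the zebrafish dorsal aorta at 21 hours post fertilization (hpf). These 5 cells, called runx1 cells here, were set against the other 13 floor cells, and the whole data set held 58 cells. The cells were chosen by the read count of runx1 itself, so its values describe the choice and are not a result. The runx1 cells were floor cells 1, 4, 5, 6 and 10, with 26, 13, 77, 13 and 20 runx1 reads. Among the other floor cells, cell 18 had 3 reads, cell 11 had 2 and the remaining 11 had 0. The lowest runx1 cells, at 13 reads, and the highest other cell, at 3 reads, were nearest to the limit on either side. As CPM, the counts of a cell scaled to a total of 1000000, the runx1 cells had 17.95, 8.74, 40.0, 18.96 and 14.5. In the other floor cells, the lowest and the median were 0 and the highest was 3.41 CPM.

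Both groups came from 21 hpf embryos that carried Tg(flk1:eGFP);Tg(flk1:NLS-Eos), with no other allele or agent given. The reporters use the promoter of flk1, also called kdrl, which is active in endothelium and its forerunners, and all cells were picked by hand for red, photoconverted nuclear Eos. Each cell was 1 Smart-seq2 library, a full-length method for single cells without molecular identifiers, sequenced as 150 bp paired-end reads. The remaining cells were 12 floor cells of 28 hpf, 18 roof cells of 21 hpf and 10 roof cells of 28 hpf. Which embryo a cell came from is not stated. The cells of a group therefore count as 1 sample without replicates, no test was made between groups, and every interval covers the counting of reads or cells only.

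Runx1 is a DNA-binding transcription factor that works with the partner protein Cbfb. It is known as the factor that hemogenic endothelium of the aortic floor needs to turn into blood stem and progenitor cells. In zebrafish, Notch signalling and gata2b act before runx1 in these cells, and gfi1aa and myb are active in the cells that go on to leave the vessel wall. A transcript of a few copies in a cell is often missed in such a library, so a cell with 0 reads was not shown to lack runx1.

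Depth did not separate the groups. The lowest total count was 685494 in the runx1 cells and 216581 in the other cells, the medians were 1448244 and 1447954, and the highest totals were 1924883 and 4227288. Before levels were summed, every cell was thinned at random to 200000 reads. At that depth the runx1 cells had 5915 to 8055 genes with a read (median 6699), against 4522 to 7213 (median 5602) in the other cells, and the ranges overlapped. Without thinning, the runx1 cells had 6608 to 9691 genes (median 8097) and the other cells had 4680 to 8467 (median 6405). Mitochondrially encoded genes took 1.54% to 2.60% of the counts in the runx1 cells and 1.61% to 5.44% in the other cells. Thinning left 3, 0, 10, 3 and 0 runx1 reads in runx1 cells 1, 4, 5, 6 and 10. Only cell 5 then reached 5 reads, which is the count called detection below.

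The runx1 cells were not of 1 kind. All 18 cells were labelled endothelial, and their markers were set against that label. Globin genes of red cells took 0.0561%, 0.0807%, 0.0170%, 0.00686% and 2.19% of the counts in runx1 cells 1, 4, 5, 6 and 10. In the other floor cells that share was 0.00297% at the lowest, 1.201% at the median and 7.72% at the highest. Cell 10 thus lay among the globin-rich cells of the floor, and the remaining runx1 cells were poor in globin. Pan-endothelial genes took 0.267%, 0.218%, 0.253%, 3.56% and 0.0205% of the counts in the same 5 cells, against 0.00639%, 0.130% and 2.29% at the lowest, median and highest of the other cells. The lowest such share in a roof cell of 21 hpf was 0.568%. Cell 6 was the only runx1 cell above it, so the label was met at the level of roof cells by 1 of the 5 runx1 cells and by 3 of the 13 other cells, which were cells 3, 16 and 18.

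**Figure D1:**
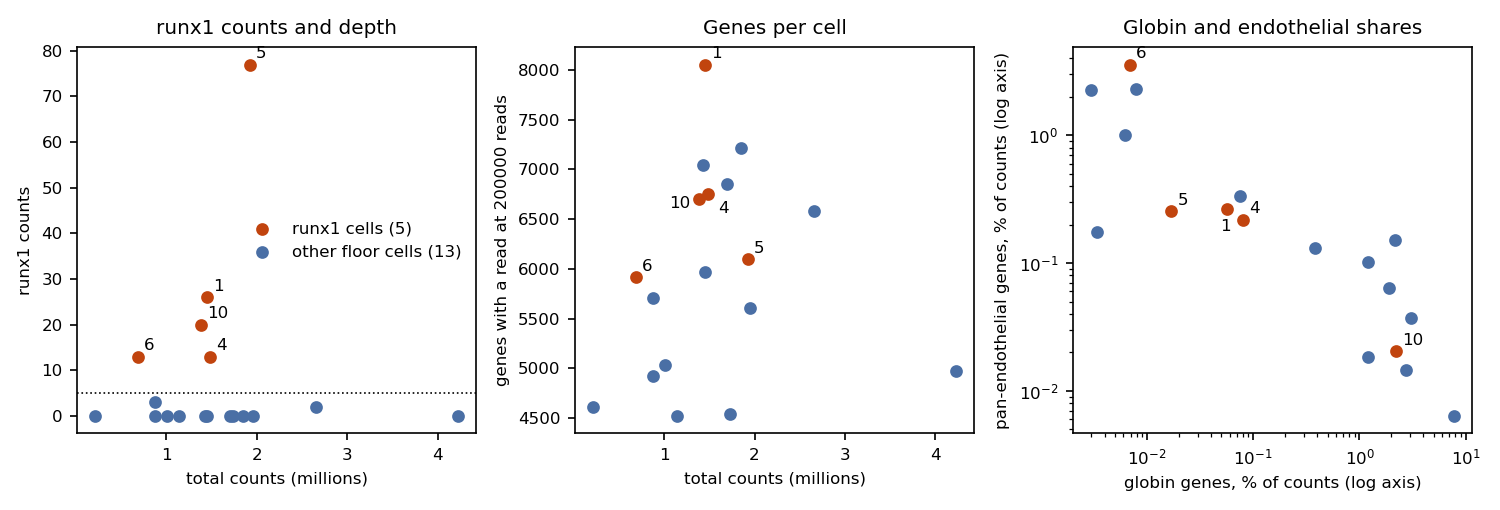
Each point is 1 floor cell of 21 hpf, with the 5 runx1 cells numbered and the other 13 cells in blue. The panels plot runx1 counts against total counts with a dotted line at 5 counts, genes with a read at 200000 reads against total counts, and the pan-endothelial share against the globin share in percent of counts on log axes. Cell 6 stands at 3.56% pan-endothelial counts and cell 10 at 2.19% globin counts, while cells 1, 4 and 5 lie together.

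A limit of 1% of counts from globin genes, chosen after the values were seen, then put the cells into 3 kinds. Globin-high cells were cell 10 of the runx1 cells and 7 of the other cells. Cells with the pan-endothelial share of roof cells were cell 6 and 3 of the other cells. Cells of neither kind were cells 1, 4 and 5 of the runx1 cells and cells 2, 8 and 9 of the other cells. These 6 cells had 0.00335% to 0.384% globin and 0.130% to 0.334% pan-endothelial counts, so they were low in both and did not meet the label of an endothelial cell at the level of the roof. The 3 kinds were thus mixed in different shares on either side of the comparison. The part of that mixture in the results below was not tested. Values without a cell, or within the cells of neither kind, are given for some results. Within a sum over cells, fewer cells of a kind and less RNA of a gene per cell cannot be told apart.

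Of 35117 genes in the table, 11218 had at least 10 thinned reads over both groups, and these are the genes called measured. In runx1 cells 2219 measured genes (19.8%) were at least 2-fold higher and 2759 (24.6%) were at least 2-fold lower than in the other cells. The median over all measured genes was -0.08 on the log2 scale of runx1 cells over other cells. The sums held 1000000 reads of runx1 cells and 2600000 reads of other cells, and 1103 measured genes had no read in the smaller sum while 207 had none in the larger. A side with no read was set to 3 reads, which equals 3 CPM in the runx1 cells and 1.15 CPM in the other cells, and the ratio was then a bound. Such a bound holds for the thinned reads only. Reads that thinning removed can put the ratio of the unthinned counts below it.

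Of the partners and the factors that act before runx1, cbfb and gata2b were higher in the runx1 cells. Gene cbfb, which encodes the partner that stabilizes Runx1 on DNA, stood at 80, 35, 105, 10 and 0 CPM in runx1 cells 1, 4, 5, 6 and 10, against 0, 0 and 90 CPM at the lowest, median and highest of the other cells. Its summed level was 46 CPM in the runx1 cells and 16.2 CPM in the other cells, which is 2.85-fold higher (95% interval 1.83 to 4.43) and 4.60-fold higher without other cell 8. It was detected in 3 of the 5 runx1 cells and 4 of the 13 other cells. The groups overlapped, and the cells without a thinned read were most of the other cells and runx1 cell 10.

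Gene gata2b, a zinc finger factor of hemogenic endothelium, stood at 10, 60, 95, 20 and 0 CPM in the runx1 cells, against 0, 0 and 95 CPM at the lowest, median and highest of the other cells. The summed levels were 37 and 7.31 CPM in runx1 cells and other cells, a 5.06-fold difference (2.84 to 9.32). It was 3.08-fold without runx1 cell 5. Without other cell 18, the cell with 3 runx1 reads, it was 29.6-fold with the other side set to 3 reads. Cell 18 alone among the other cells reached 5 thinned reads. Other cells 8, 11 and 13 had 22, 16 and 1 gata2b reads before thinning and none after it. The 29.6-fold is therefore no lower limit for the unthinned counts. Without thinning, 4 of the 5 runx1 cells and 3 of the 13 other cells had 5 or more gata2b reads. Its paralogue gata2a lay the other way, at 0, 0, 0, 50 and 100 CPM in the runx1 cells and 0, 40 and 330 CPM at the lowest, median and highest of the other cells. The summed level of gata2a was 2.03-fold lower in the runx1 cells (1.36 to 3.10), 4.86-fold lower without runx1 cell 10 and 1.28-fold lower without other cell 16.

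Genes that hemogenic cells switch on were spread unevenly over the runx1 cells. The factor gene myb, needed for lasting blood formation, stood at 1725, 1820, 1890, 0 and 420 CPM in the runx1 cells and at 0, 225 and 2140 CPM at the lowest, median and highest of the other cells. Cells 1, 4 and 5 were thus near the highest other cell, and cell 6 had no read. The summed levels were 1171 CPM in runx1 cells and 476 CPM in other cells, a 2.46-fold difference (2.27 to 2.67) that no single cell moved by more than 1.5 times. The repressor gene gfi1aa stood at 1500, 1940, 25, 25 and 560 CPM in the runx1 cells, against 0, 85 and 3410 CPM in the other cells, whose highest was cell 2. Its summed level was 1.29-fold higher in the runx1 cells (1.19 to 1.41), but 1.19-fold lower without runx1 cell 4 and 2.06-fold higher without other cell 2. Its relative gfi1b had reads in runx1 cell 10 alone among the 5, at 480 CPM, against a highest value of 280 CPM in the other cells. Genes for the shared blood and endothelial factors differed little, with tal1 1.095-fold higher (0.984 to 1.22) and lmo2 1.12-fold lower (1.02 to 1.23) in the runx1 cells. The ETS factor gene fli1a was 1.61-fold higher (1.48 to 1.74).

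Of 38 genes in a list of hemogenic and early blood stem cell genes without runx1, 36 were in the table and 31 were measured. In the runx1 cells 9 (29.0%) were at least 2-fold higher, 6 (19.4%) were at least 2-fold lower and 16 lay within 2-fold, against 19.8% higher and 24.6% lower among all measured genes. The list's median was 0.37 on the log2 scale. The 9 higher members were coro1a, ptprc, cebpb, gata2b, hoxa9a, ldb1a, myb, dnmt3bb.1 and cebpa, and the 6 lower ones were cxcr4a, sox17, mllt3, nrp1a, mycb and gata2a. Of the higher ones, coro1a, ptprc, cebpb and cebpa are also genes of white blood cells. Genes coro1a and cebpa are counted again in the myeloid list below, and ptprc rested on 9 reads of runx1 cell 5. The shares of the list without these genes are not given. The summed level of the list was 3965 to 13990 CPM over the runx1 cells and 2315 to 12315 CPM over the other cells, with medians of 9150 and 4585 CPM. The 3 highest sums of the runx1 cells were those of cells 1, 4 and 5.

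**Figure D2:**
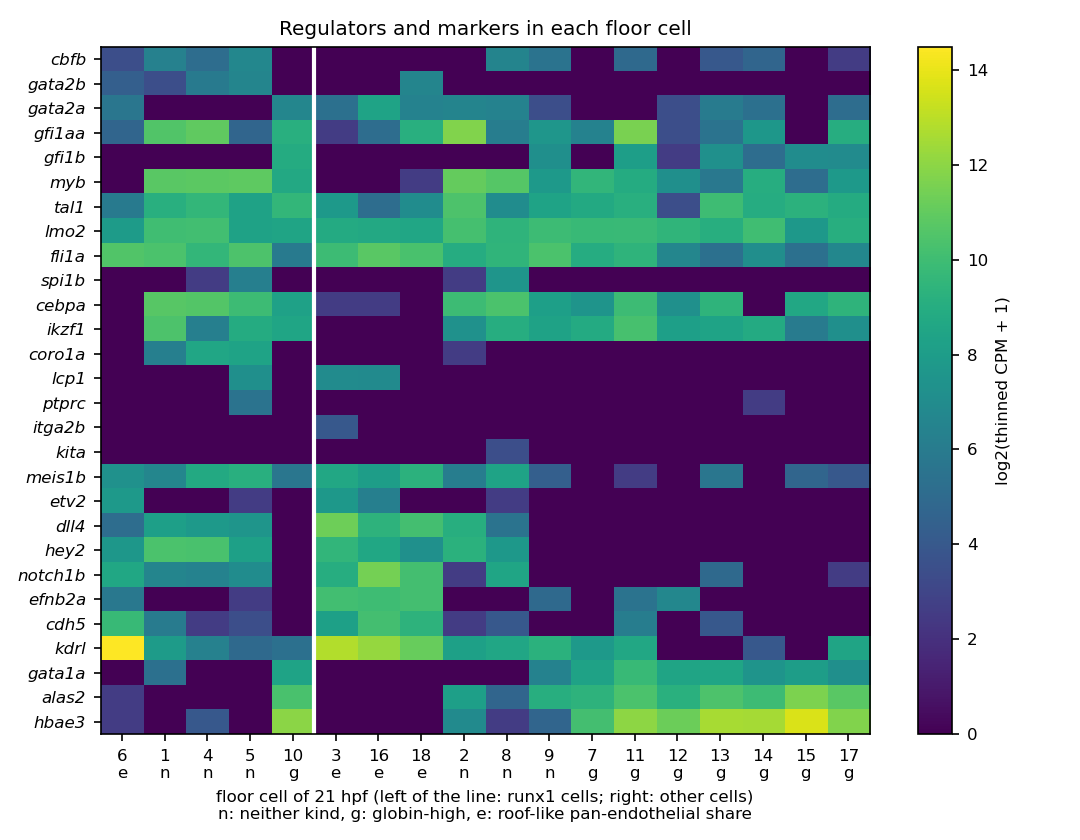
Rows are 28 regulators and markers and columns are the 18 floor cells of 21 hpf, with the 5 runx1 cells left of the white line. The color gives log2(thinned CPM + 1), and letters under the cell numbers give the kind of cell. Genes myb and cebpa were detected in 4 of the 5 runx1 cells, all but cell 6, in which kdrl stood at 22825 CPM. Of the 13 other cells, 10 had myb detected and 9 had cebpa detected.

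Among genes of white blood cells, the CCAAT-binding factor gene cebpb was high in 3 of the 5 runx1 cells. It stood at 2790, 1670, 1310, 55 and 0 CPM in the runx1 cells, against 0, 0 and 825 CPM at the lowest, median and highest of the other cells. The first 3 runx1 cells lay above all 13 other cells, of which 3 had the gene detected. The summed levels were 1165 CPM in runx1 cells and 80.8 CPM in other cells, 14.4-fold apart (12.4 to 16.8), with 9.39-fold left without runx1 cell 1 and 62.1-fold without other cell 8. Its relative cebpa stood at 1670, 1560, 970, 0 and 310 CPM in the runx1 cells and at 0, 290 and 1340 CPM in the other cells. That was 2.05-fold higher in the sum (1.87 to 2.24).

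The actin regulator gene coro1a, typical of white blood cells, had 1 thinned read in all 13 other floor cells. It stood at 75, 375, 335, 0 and 0 CPM in the runx1 cells and at 0, 0 and 5 CPM at the lowest, median and highest of the other cells, where the read was in cell 2. The summed levels of 157 and 0.385 CPM in runx1 cells and other cells had a ratio of 408 with an interval of 72.2 to 16224, which was 266 without runx1 cell 4 (46.5 to 10653). Against the floor of 3 reads, the difference was at least 126-fold without other cell 2. Unthinned counts gave the same cells, with 5 or more reads in 3 of the 5 runx1 cells and 0 of the 13 other cells. The interferon-regulated factor gene irf1b had 180, 195, 210, 0 and 0 CPM in the runx1 cells, against 0, 25 and 45 CPM in the other cells. It was 5.07-fold higher in the sum (3.68 to 7.04), and again cells 1, 4 and 5 lay above all other cells while cells 6 and 10 had no read.

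Of 25 genes in a list of myeloid markers, 24 were in the table, 10 had no read in any of the 18 cells before thinning and 11 were measured. In the runx1 cells 5 of these 11 were at least 2-fold higher (coro1a, ncf1, irf1b, ptpn6 and cebpa) and 2 were at least 2-fold lower (spi1a and irf8), which is 45.5% higher and 18.2% lower against 19.8% and 24.6% of all measured genes. The list's median was 0.79 on the log2 scale. The sum of the list was 0 to 2525 CPM in the runx1 cells and 25 to 3650 CPM in the other cells. It was 0 in cell 6. Gene spi1b, for the myeloid factor Pu.1, stood at 0, 5, 75, 0 and 0 CPM in the runx1 cells and reached 185 CPM in the other cells. The neutrophil peroxidase gene mpx had 2005 CPM in runx1 cell 10 and 0 in the other 4, against a highest value of 2930 CPM in the other cells. The signalling phosphatase gene ptprc (CD45) had 45 CPM in runx1 cell 5 alone, and the stem cell surface genes itga2b (CD41) and kita had no thinned read in any runx1 cell.

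Genes of inflammatory signalling, which is known to promote blood stem cell formation in the aorta, were higher or within 2-fold in the sum of the runx1 cells. Of 23 listed genes, 15 were measured, and in the runx1 cells 6 of them (40%) were at least 2-fold higher, 0 were at least 2-fold lower and 9 lay within 2-fold, against 19.8% higher and 24.6% lower among all measured genes. The median was 0.62 on the log2 scale. The higher ones were tnfrsf1b, nfkb2, socs3a, stat1a, stat1b and nfkbiab. The feedback inhibitor gene socs3a stood at 30, 105, 5, 0 and 395 CPM in the runx1 cells and at 0, 0 and 95 CPM in the other cells. It was 8.69-fold higher in the sum (5.81 to 13.3), 2.84-fold without runx1 cell 10 and 19.8-fold without other cell 18. Without the cells of over 1% erythroid counts its log2 ratio was -1.89. That setting left runx1 cells 1, 5 and 6 against other cells 3, 16 and 18, which were all of roof-like endothelial share. The interferon mediator gene stat1a stood at 10, 40, 150, 0 and 115 CPM in the runx1 cells and at 0, 5 and 50 CPM in the other cells, 6.07-fold higher (3.81 to 9.91) and 3.97-fold without cell 5. The list's sum was 155 to 1600 CPM in the runx1 cells and 130 to 990 CPM in the other cells, and the cell at 155 CPM was cell 6.

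Arterial and Notch pathway genes were mostly lower in the sum of the runx1 cells, and this direction changed with the cells included. Of 35 listed genes, 28 were measured. In the runx1 cells 3 (10.7%) were at least 2-fold higher (dla, hey2 and notch1a) and 16 (57.1%) at least 2-fold lower. Among all measured genes these shares were 19.8% and 24.6%. The list's median was -1.29 on the log2 scale. The median was -2.86 over 27 members without runx1 cell 6. It was 0.78 over only 16 members without cell 6 and other cells 3, 16 and 18, the cells of roof-like endothelial share. With cells 11 and 18 counted among the runx1 cells it was 0.10. The part of the kinds of cells in these changes was not tested. The list's sum was 1390 to 4225 CPM in the runx1 cells (median 2520) and 160 to 28220 CPM in the other cells (median 1170). The lowest cells were thus among the other cells, and so were the highest.

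The members did not move as 1 group. The Notch ligand gene dll4 stood at 285, 230, 190, 35 and 0 CPM in the runx1 cells, and at 0, 0 and 2480 CPM at the lowest, median and highest of the other cells. It was detected in 4 of the 5 runx1 cells and 5 of the 13 other cells, yet its sum was 2.52-fold lower in the runx1 cells (2.11 to 3.01), and 1.33-fold lower without other cell 3. The receptor gene notch1b had 95, 85, 130, 390 and 0 CPM in the runx1 cells, against 0, 5 and 2805 CPM in the other cells. Its sum was 2.68-fold lower (2.24 to 3.22), 4.83-fold lower without runx1 cell 6 and 1.23-fold lower without other cell 16. The arterial ephrin gene efnb2a was 21.99-fold lower in the sum (12.5 to 42.8) and 211-fold lower without cell 6 (37.8 to 8349), which held 55 CPM while cell 5 held 5 CPM and the other 3 runx1 cells had none. In the other cells efnb2a reached 1150 CPM. Without the 4 cells of roof-like endothelial share, the log2 ratio of dll4 was 1.60 and that of notch1b was 0.95, so both were then higher in the runx1 cells.

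The Notch target gene hey2, an arterial repressor that acts early in zebrafish hemogenic cells, went the other way. It stood at 1305, 1295, 295, 200 and 0 CPM in the runx1 cells, against 0, 0 and 750 CPM at the lowest, median and highest of the other cells. Cells 1 and 4 lay above all other floor cells, and cell 10 had no read. The summed levels were 619 CPM in runx1 cells and 162 CPM in other cells, 3.82-fold apart (3.37 to 4.34), with no single cell moving the ratio by more than 1.5 times. For comparison, hey2 was detected in 17 of 17 thinned roof cells of 21 hpf, where its summed level was 773 CPM, while coro1a was detected in 0 of them.

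The pan-endothelial list had 25 measured members of 30 listed. In the runx1 cells 3 (12%) were at least 2-fold higher and 11 (44%) at least 2-fold lower. Among all measured genes these shares were 19.8% and 24.6%. The list's median was -0.48 on the log2 scale. That median was -3.03 without runx1 cell 6, 0.26 without other cell 3 and 0.14 without other cell 16. The gene of the VEGF receptor kdrl, whose promoter drives the reporters, stood at 250, 80, 30, 22825 and 40 CPM in the runx1 cells and at 0, 355 and 7290 CPM in the other cells. Its sum was 3.64-fold higher in the runx1 cells (3.48 to 3.81), 12.8-fold lower without cell 6 and 5.99-fold higher without other cell 3, so the direction rested on 1 cell. The junction gene cdh5 likewise stood at 65, 5, 10, 875 and 0 CPM in the runx1 cells, against 0, 5 and 1150 CPM in the other cells. Its log2 ratio of 0.17 was -0.41 in raw sums, 1.13 without other cell 16 and -3.08 without cell 6.

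The angiopoietin receptor gene tek was less tied to that cell, at 135, 150, 90, 685 and 50 CPM in the runx1 cells and 0, 45 and 210 CPM in the other cells. It was detected in all 5 runx1 cells, was 3.395-fold higher in the sum (2.77 to 4.17) and remained 1.62-fold higher without cell 6. Venous genes, with 9 of 13 measured, had 2 (22.2%) at least 2-fold higher and 4 (44.4%) at least 2-fold lower in the runx1 cells, against 19.8% and 24.6% of all measured genes. Their median of -0.65 on the log2 scale was -2.04 without runx1 cell 6 and -0.06 without other cell 18. Of 10 measured targets of BMP signalling, 3 (30%) were at least 2-fold higher and 6 (60%) at least 2-fold lower, with a median of -1.22. That median was 0.25 without the 4 cells of roof-like endothelial share, -0.52 without other cell 8 and -0.16 without other cell 16. The inhibitor gene smad7 was at 0 in all 5 runx1 cells, at least 24.1-fold lower than in the other cells and at least 8.47-fold lower without other cell 16.

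Red cell genes were lower in the runx1 cells, in which 4 of 5 cells were poor in globin. All 32 erythroid genes in the table were measured, with 0 at least 2-fold higher and 19 (59.4%) at least 2-fold lower. Among all measured genes 19.8% were higher and 24.6% lower. The list's median was -1.16 on the log2 scale. The median was -4.72 without runx1 cell 10. It was 3.44 between runx1 cells 1, 5 and 6 and other cells 3, 16 and 18, the cells with at most 1% of counts from this list, where 14 members were measured. That choice used counts of the same list and left only cells of roof-like endothelial share among the other cells. The value of 3.44 is therefore no check of the list's direction. The factor gene gata1a stood at 40, 0, 0, 0 and 335 CPM in the runx1 cells, against 0, 150 and 880 CPM at the lowest, median and highest of the other cells, and was 2.66-fold lower in the sum (2.09 to 3.44) or 19.96-fold lower without cell 10. With cells 11 and 18 counted among the runx1 cells, its log2 ratio was 0.20. The heme synthesis gene alas2 was at 0, 0, 0, 5 and 1265 CPM in the runx1 cells and at 0, 590 and 3145 CPM in the other cells. It was 3.25-fold lower (2.85 to 3.71), or 659-fold lower without cell 10 (118 to 26056). The globin gene hbae3, whose reads could be split among near-identical copies, was 3.45-fold lower (3.21 to 3.71) and 559-fold lower without cell 10.

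The blood zinc finger gene blf was 1 of the 13 members within 2-fold, at -0.05 on the log2 scale. It was the highest member of the erythroid list in runx1 cells 1, 4, 5 and 10, where it stood at 4545, 12935, 1190 and 10275 CPM. The erythroid sum was 190 to 47350 CPM in the runx1 cells and 95 to 101825 CPM in the other cells, with medians of 7205 and 24110 CPM. Cells poor in globin therefore still held transcripts of that list.

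**Figure D3:**
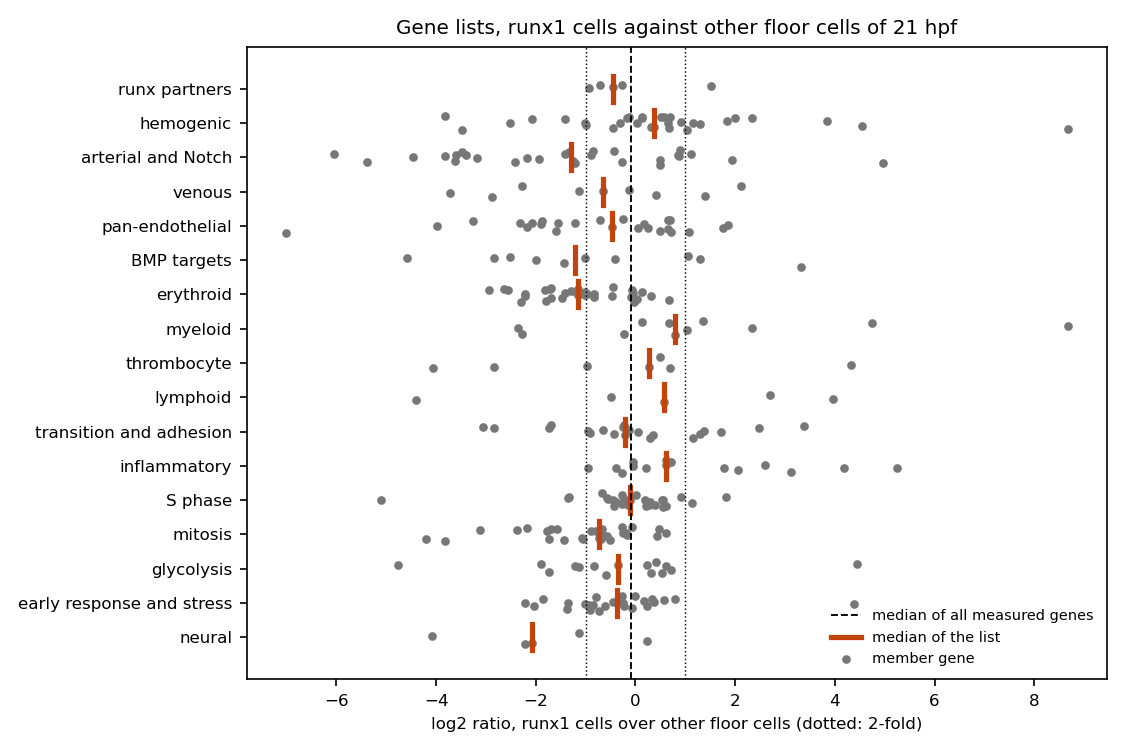
Each grey point is 1 measured gene of a list, placed by its log2 ratio of runx1 cells over other floor cells, each red bar is a list's median, and the dashed line is the median of all measured genes at -0.08. Dotted lines mark 2-fold. The arterial and Notch median is at -1.29 and the erythroid median at -1.16, while the myeloid and inflammatory medians are at 0.79 and 0.62.

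Among all measured genes, 19.8% were at least 2-fold higher and 24.6% at least 2-fold lower in the runx1 cells. Of 27 measured DNA replication genes, 2 (7.41%) were at least 2-fold higher and 3 (11.1%) at least 2-fold lower. Their median lay between -0.96 and 0.32 with any 1 cell left out. Of 29 measured mitosis genes, 0 were at least 2-fold higher and 12 (41.4%) were at least 2-fold lower, with a median of -0.73, or -1.78 without runx1 cell 1. The sum of the mitosis list was 495 to 5625 CPM in the runx1 cells and 70 to 11880 CPM in the other cells. Of 15 measured glycolysis genes, 1 (6.67%) was at least 2-fold higher and 5 (33.3%) were at least 2-fold lower. Their median of -0.36 was 0.12 without other cell 3 and 0.03 with DESeq2 size factors. Early response and stress genes had a median of -0.38, with 1 of 26 (3.85%) at least 2-fold higher and 6 (23.1%) lower. The lower share was near that of all measured genes. The heat shock chaperone gene hspa8 stood at 14005, 14475, 13365, 5620 and 6135 CPM in the runx1 cells, against 1995, 5310 and 13210 CPM at the lowest, median and highest of the other cells. It was 1.74-fold higher in the sum (1.70 to 1.79), and cells 1, 4 and 5 were again above all other cells.

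For the list of genes of the transition from endothelium to blood and of adhesion, 21 of 25 were measured. In the runx1 cells 6 (28.6%) were at least 2-fold higher and 4 (19.05%) at least 2-fold lower. Among all measured genes these shares were 19.8% and 24.6%. The list's median was -0.21. The adhesion genes itga5 and podxl were 8.37-fold lower (4.15 to 19.7) and 7.13-fold lower (5.19 to 10.1). Without runx1 cell 4 and other cell 3, each left out in turn, itga5 was 17.8-fold (6.01 to 87.4) and 5.00-fold lower. Without runx1 cell 1 and other cell 16, podxl was 32.6-fold and 4.68-fold lower. Of 5 measured partners and cofactors of Runx factors, cbfb alone differed by at least 2-fold. The list's median was -0.46, and 0.14 without other cell 18. Of 7 measured thrombocyte genes, 1 (14.3%) was at least 2-fold higher and 2 (28.6%) were lower. Of 5 measured lymphoid genes, 2 (40%) were higher and 1 (20%) was lower.

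Markers of tissues around the aorta were summed in the same cells. Muscle genes summed to 0 to 105 CPM in the runx1 cells and 0 to 70 CPM in the other cells. Before thinning, 16 of their 24 markers had no read in any of these floor cells. Neural genes summed to 0 to 400 CPM in the runx1 cells and 0 to 630 CPM in the other cells, and notochord and sclerotome genes to 0 and to 0 to 35 CPM. Epidermal genes summed to 5 to 755 CPM in the runx1 cells and 0 to 9580 CPM in the other cells, and genes of endoderm and gut to 45 to 170 CPM and 0 to 2945 CPM. Pronephros genes reached 95 CPM in the runx1 cells and 490 CPM in the other cells, and mural and mesenchyme genes 125 and 140 CPM. Their part in the results was not tested.

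A stricter choice asked for genes that were at least 2-fold apart in thinned and raw sums and whenever any 1 cell was left out. They also had to reach 50 CPM on the higher side and be detected in at least 4 of the 5 runx1 cells, if higher, or 7 of the 13 other cells, if lower. In the runx1 cells 112 genes (0.998% of measured genes) were higher by this choice and 199 (1.77%) were lower. Genes were ranked by the smallest ratio over all sums with a cell left out, and the first 12 each way were named. These genes passed through values from the same cells, so their values are a description. By detection alone, 105 measured genes (0.936%) were found with 5 or more thinned reads in at least 3 of the 5 runx1 cells and at most 1 of the 13 others, among them coro1a, rnf146, map2 and mospd2, with no demand on the ratio. The runx1 cells also had more genes with a read at this depth, at medians of 6699 and 5602. A count for the reverse rule is not given, so the 105 genes have no yardstick.

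The first higher gene, zgc:162707, stood at 200, 75, 200, 30 and 40 CPM in the runx1 cells and at 0, 0 and 15 CPM at the lowest, median and highest of the other cells. The summed levels were 109 CPM in runx1 cells and 1.15 CPM in other cells, a ratio of 94.5 (31.5 to 465), and the groups did not overlap. Among all measured genes, 2 (0.0178%) did not overlap with the runx1 cells higher and 0 did so with the runx1 cells lower. The other such gene was wipf2a, an actin regulator named here after its values were seen, with 20, 70, 60, 15 and 35 CPM in the runx1 cells and 0 in all 13 other cells. It was at least 34.7-fold higher in the runx1 cells. Both genes had reads in roof cells of 21 hpf, where they were detected in 7 and 3 of 17 cells.

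After zgc:162707 came rnf146, a gene of a ubiquitin ligase, with 50, 115, 15, 70 and 50 CPM in the runx1 cells and at most 15 CPM in the other cells, 26-fold higher (11.3 to 73.7). The microtubule-binding protein gene map2 had 35, 90, 110, 170 and 0 CPM in the runx1 cells and at most 25 CPM in the other cells, 21.1-fold higher (10.9 to 45.6). Gene clec16a was 22.5-fold higher (13.2 to 41.4) and 9.10-fold without runx1 cell 6, which held 440 CPM of it. The remaining ones were mospd2 at 16.1-fold, cebpb, the mitotic checkpoint ligase gene chfr at 10.8-fold, itprip at 10.3-fold, zgc:91976 at 7.39-fold, the connexin gene cx43.4 at 7.22-fold, the AMP deaminase gene ampd2a at 6.84-fold and the nuclear receptor coactivator gene ncoa6 at 6.16-fold. Leaving out other cell 8 gave 48.0-fold for rnf146 (15.7 to 239), at least 49.6-fold for mospd2, 39.0-fold for clec16a, 29.8-fold for itprip and 20-fold for cx43.4. Leaving out other cell 7 gave the same value and interval for rnf146, and other cells 9 and 13, each left out alone, gave 32.4-fold and 38.9-fold for map2. Without other cell 13, chfr was 22.5-fold higher, without other cell 2, zgc:91976 was 12.96-fold higher, and without other cell 12, ampd2a was 10.7-fold higher. Leaving out runx1 cell 4 gave 6.50-fold for itprip.

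Of the 12 genes that were lower, the transcription factor gene zbtb17 had 0 reads in all 5 runx1 cells against 0, 45 and 280 CPM at the lowest, median and highest of the other cells. It was at least 27.4-fold lower. The glycolytic gene gapdhs had 5, 5, 5, 0 and 0 CPM in the runx1 cells and 0, 60 and 215 CPM in the other cells, 27.1-fold lower (9.13 to 132). Gene rfesd had 1 read in the runx1 cells, in cell 1, with a ratio of 140 downwards (25.0 to 5560), or at least 37.4-fold lower without that cell. The kinetochore motor gene cenpe was 18.5-fold lower (7.80 to 57.4), the forkhead factor gene foxj3 was 17.3-fold lower (9.30 to 36.3) and the membrane anchor synthesis gene pigq was 34.7-fold lower (11.8 to 170).

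The other 6 were an uncharacterized gene, ENSDARG00000096331, at 21.3-fold lower, nufip2 at 21.4-fold, the protease gene adam8b at 18.5-fold, lrba at 17.5-fold, pxk at 16.7-fold and si:ch73-109d9.3 at 16.3-fold. Some of these ratios then rested on 1 to 3 reads of the runx1 cells, and their intervals were wide. Leaving out runx1 cell 1 gave values of 36.9-fold lower for cenpe (10.1 to 307), 83.4-fold for pigq (14.8 to 3306), 59.1-fold for adam8b (10.5 to 2345), 126-fold for lrba (22.5 to 4983) and 69.5-fold for si:ch73-109d9.3 (23.7 to 338). Leaving out runx1 cell 4 gave 46.1-fold lower for foxj3 (15.7 to 224), and runx1 cell 10 gave 68.6-fold for nufip2 (12.2 to 2722). In the other direction, leaving out other cell 15 gave 22.9-fold lower for pigq (7.71 to 112), other cell 9 gave 10.3-fold for foxj3 and other cell 11 gave 9.27-fold for nufip2. With cells 11 and 18, which had 2 and 3 runx1 reads, counted among the runx1 cells, nufip2 had a log2 ratio of 1.59, and without the cells of over 1% erythroid counts ENSDARG00000096331 had one of 2.00. Each of the 12 genes still had at least 1 other cell without a read, so the groups overlapped.

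**Figure D4:**
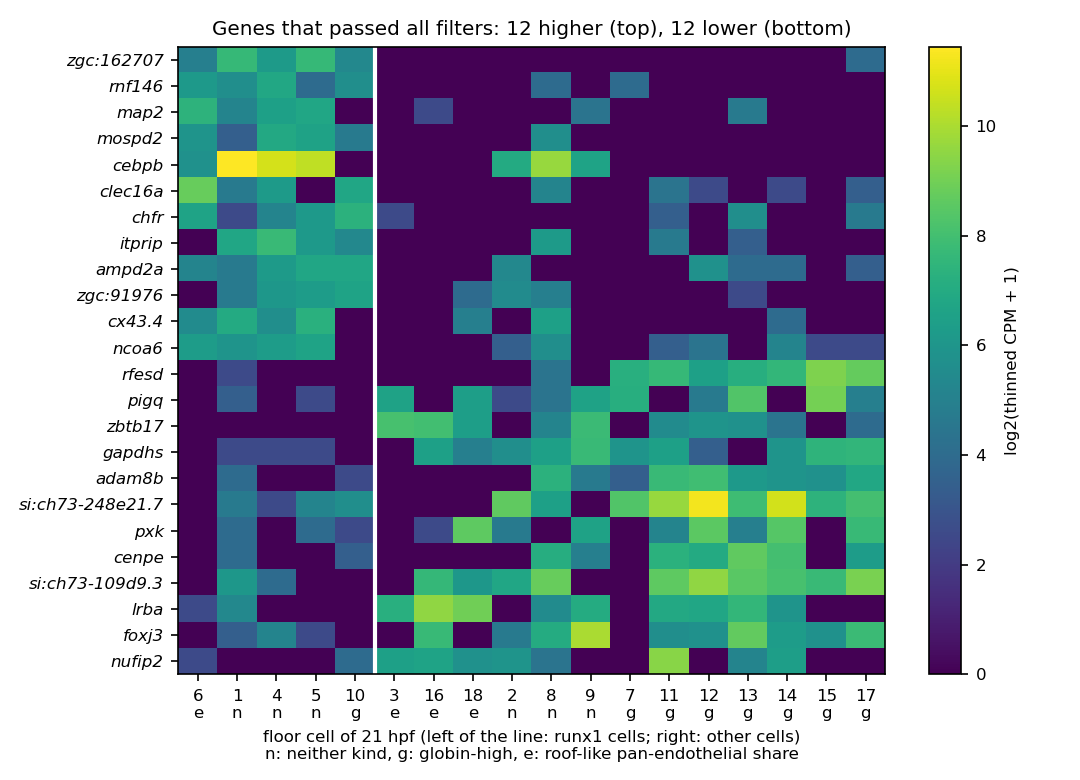
Rows are the 12 genes higher and the 12 genes lower in runx1 cells by the stricter choice, and columns are the 18 floor cells of 21 hpf with the runx1 cells left of the white line. The color gives log2(thinned CPM + 1). Gene zgc:162707 has reads in all 5 runx1 cells, at 30 CPM or more, and zbtb17 has none there.

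The 6 cells of neither kind allowed a comparison of runx1 cells 1, 4 and 5 against other cells 2, 8 and 9. These cells were grouped by exclusion and were not shown to be 1 kind. Gene alas2, for example, stood at 0 CPM in the 3 runx1 cells and at 285, 25 and 530 CPM in other cells 2, 8 and 9. The part of such a mixture in this split was not tested. This split was added after the data were seen, it shares all its cells with the comparison above, and 1993 of 7848 measured genes (25.4%) were at least 2-fold higher and 2261 (28.8%) at least 2-fold lower in its runx1 cells. Of the 112 genes of the stricter choice, 86 were at least 2-fold higher in this split, and of 194 measured among the 199 lower ones, 157 were at least 2-fold lower. Values of these same cells had chosen the genes, so this overlap follows in part from the choice and is no check of it. Gene gata2b had no thinned read in the 3 other cells and was 11-fold higher with that side set to 3 reads. Before thinning, other cell 8 had 22 gata2b reads, at 12.9 CPM, and runx1 cell 1 had 5, at 3.45 CPM. The unthinned values of gata2b thus overlapped. Gene cebpb was 5.50-fold higher, hey2 3.57-fold, cbfb 1.63-fold and myb 1.37-fold. Gene coro1a stood at 75, 375 and 335 CPM in the runx1 cells, with 1 read in the 3 other cells.

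The myeloid list's sum was 2095, 2525 and 1895 CPM in runx1 cells 1, 4 and 5, against 1125, 1825 and 695 CPM in other cells 2, 8 and 9. The inflammatory list's sum was 580, 1025 and 1100 CPM in the runx1 cells, against 130, 545 and 355 CPM in the other cells. Neither of these 2 sums overlapped between the groups of 3, and they were the only 2 of 17 lists with at least 5 measured genes (11.8%) that did not overlap with the runx1 cells higher, while 0 did so with the runx1 cells lower. Most of the myeloid sum was cebpa, which is also in the hemogenic list. It held 1670, 1560 and 970 CPM of that sum in the runx1 cells and 970, 1340 and 290 CPM in the other cells. Without cebpa the myeloid sums overlapped, as runx1 cell 1 was then below other cell 8. Among single genes, 5.45% did not overlap with the runx1 cells higher and 2.85% with the runx1 cells lower. Of 14 measured inflammatory genes, 8 (57.1%) were at least 2-fold higher and 2 (14.3%) at least 2-fold lower in the runx1 cells, with a median of 1.91 on the log2 scale that lay between 1.097 and 2.49 with any 1 cell left out. It was 1.097 without runx1 cell 5. Of 9 measured myeloid genes, 5 (55.6%) were at least 2-fold higher and 2 (22.2%) at least 2-fold lower, with a median of 3.17 that was 1.80 without runx1 cell 5.

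The sums of the other lists overlapped. The hemogenic, arterial and Notch, DNA replication and mitosis medians changed sign with 1 cell left out. The arterial and Notch median of -0.22 was 0.84 without other cell 9. The hemogenic sum was 13990, 11810 and 9150 CPM in the runx1 cells and 12315, 7880 and 4765 CPM in the other cells, and the list's median of 0.28 was -0.20 without runx1 cell 1. The erythroid sum was 7205, 15780 and 2565 CPM in the runx1 cells and 24110, 14680 and 13850 CPM in the other cells. Of these sums, blf alone held 4545, 12935 and 1190 CPM in the runx1 cells and 11885, 11155 and 8895 CPM in the other cells. Of 26 measured erythroid genes, 21 (80.8%) were at least 2-fold lower and 1 (3.85%) at least 2-fold higher. The shares of all measured genes in this split were 28.8% and 25.4%. The erythroid median of -1.83 lay between -2.33 and -1.27 with any 1 cell left out. DNA replication genes summed to 3200, 970 and 17335 CPM in the runx1 cells and to 895, 1775 and 3715 CPM in the other cells. Of 26 of them, 17 were at least 2-fold higher, at a median of 1.90, but without runx1 cell 5 the median was -0.13, and without other cell 9 it was 2.78. Mitosis genes summed to 5625, 495 and 915 CPM in the runx1 cells and to 255, 3895 and 11880 CPM in the other cells. Their median of -0.95 was 0.86 without other cell 9 and -3.43 without runx1 cell 1.

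**Figure D5:**
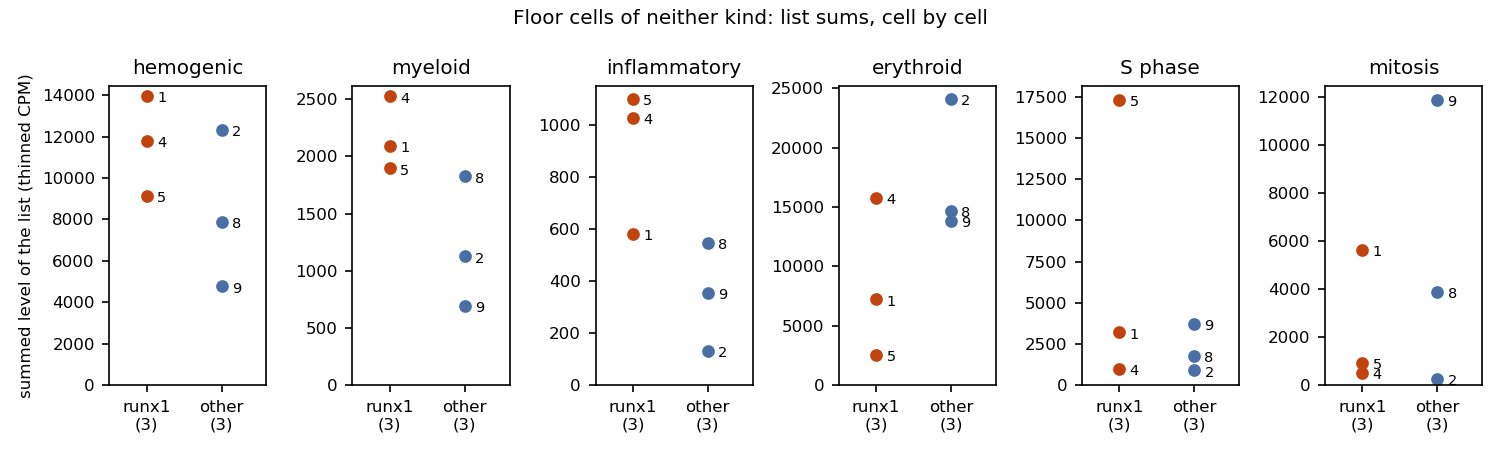
Points are the summed thinned CPM of 6 gene lists in the 6 floor cells of 21 hpf of neither kind, with runx1 cells 1, 4 and 5 left of other cells 2, 8 and 9 in each panel. Each axis starts at 0 and has its own scale. The myeloid and inflammatory sums of the runx1 cells lie above those of the other cells, and the S phase and mitosis sums are each led by 1 cell.

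Floor cells of 28 hpf share no cell with those of 21 hpf and were split by the same count of 5. In the 8 runx1 cells of 28 hpf there were 27 to 166 runx1 reads, against 0 to 3 in the other 4, at total counts of 4339995 to 8254178 and 4509039 to 8173116. At 28 hpf, 3056 of 8358 measured genes (36.6%) were at least 2-fold higher and 1930 (23.1%) at least 2-fold lower in runx1 cells. Of the 112 higher genes of 21 hpf, 108 were measured at 28 hpf, and 31 (28.7%) were at least 2-fold higher in runx1 cells there while 24 (22.2%) were at least 2-fold lower. Of the 199 lower genes, 190 were measured, and 35 (18.4%) were at least 2-fold lower there while 71 (37.4%) were at least 2-fold higher. These shares lay near those of all measured genes at 28 hpf, or below them.

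Single genes kept or lost their direction at the later stage. In runx1 cells and other floor cells of 28 hpf the summed level of hey2 was 503 and 0 CPM, a ratio of at least 134. That of map2 was 740 and 81.3 CPM, or 9.11-fold higher, that of cbfb was 111 and 22.5 CPM, or 4.94-fold higher, and that of myb was 1169 and 591 CPM, or 1.98-fold higher. Gene coro1a was 2.43-fold higher and cebpb 1.58-fold higher. By contrast gata2b was 2.35-fold lower, at 35.6 CPM in the runx1 cells and 83.8 CPM in the other cells of 28 hpf, and gfi1aa was 2.10-fold lower. Gene zgc:162707 was 1.42-fold lower. Values by kind of cell, intervals and values with a cell left out are not given for 28 hpf. The globin gene hbae3 stood there at 934 CPM in the runx1 cells and 5897.5 CPM in the other cells. Gene gfi1b stood at 1.25 and 86.25 CPM, while gata1a went the other way, at 422 and 41.25 CPM. The part of a mixture of kinds in these ratios of 28 hpf was not tested. In the roof, runx1 was at 0 reads in all 18 cells of 21 hpf.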

How the data were processed

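Single cells of the dorsal aorta were picked by hand and sequenced by Smart-seq2 with oligo-dT capture, per the labels' protocols. The authors deposited counts of reads per gene and cell. The submitters' processing notes name Trim Galore, STAR and the assembly GRCz11 (danRer11), with no version. How reads were counted, with which annotation and whether by strand is not given in the sources used here, so reads of a gene and of an overlapping antisense gene may not be separable.

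The table held 35117 genes, and 4701 IDs took their symbol from a reference table. A symbol held by several of 1897 entries stayed with the one that had most reads. Total counts of the floor cells of 21 hpf ranged from 216581 to 4227288. Cells were split at 5 raw runx1 counts, thinned to 200000 reads without replacement (seed 1) and summed per side, and levels are CPM of these sums. A gene needed 10 or more reads over both sides, a side at 0 was set to 3 reads, and intervals are exact 95% intervals for counting. Reads without molecular identifiers are not independent molecules, so they understate the error.

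Named genes were 28 key genes whatever their values, up to 12 genes each way by the stricter choice described in the text, and up to 2 members each way of each list with 5 or more measured members, of which some are given. The 23 lists held 500 entries, of which 474 were in the table. The members, lists and choices were made with earlier results of these data known. Alternatives were raw sums, thinning to 100000 reads, seed 2, TMM factors (edgeR 4.0.16), size factors (DESeq2 1.42.0), totals without 13 mitochondrially encoded genes, minimums of 1 and 30 reads, a pseudocount of 1 CPM, other runx1 limits, deeper other cells only, and leaving out kinds of cells or each of the 18 cells in turn. The steps were tested on simulated data, with all cells drawn from the mean floor profile and set changes in the runx1 cells. Differences between kinds of cells were not part of that test. Python 3.11.15 with numpy 2.4.6, pandas 2.3.3 and scipy 1.17.1, and R 4.3.3 were used.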

Additional observations from a re-analysis of the deposited data

Results flagged for a closer look

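Among the measures screened, 16 had 1 of the 5 runx1 cells of 21 hpf far from the other 4. Its gap to its nearest neighbour was above 0.71 of the group's range. Chance flags about 1 in 20 groups of 5 normally distributed values, which these levels with many zeros are not. A gene with reads in 1 cell alone always meets this limit. The number of measures screened is not given, so the count of 16 cannot be set against that share. Measures outside these 16 met the limit too, such as the globin share of cell 10 at 2.19% and ptprc at 45 CPM in cell 5 alone. Cell 6 stood apart for endothelial genes, with the highest levels of kdrl at 22825 CPM, of the vessel junction gene cdh5 at 875 CPM, of the early endothelial factor gene etv2 at 230 CPM and of efnb2a at 55 CPM. It also had the highest clec16a at 440 CPM, the highest pan-endothelial share at 3.56%, the lowest mitochondrial share at 1.54% and a myeloid share of 0%. Cell 10 stood apart for red cell genes, with gata1a at 335 CPM, alas2 at 1265 CPM, hbae3 at 4030 CPM and gfi1b at 480 CPM. Cell 5 stood apart with spi1b at 75 CPM and with the actin-bundling gene lcp1 at 150 CPM. The remaining ones were si:ch73-109d9.3 at 65 CPM in cell 1 and foxj3 at 35 CPM in cell 4.

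Reads of runx1 were also counted outside the floor, in roof cells of 28 hpf, where cell 2 had 11 and cell 8 had 38 counts and the other 8 cells had 0. All 18 roof cells of 21 hpf had 0.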

How the results depend on the processing

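The runx1 split rests on 5 and 13 cells, thinning removed most runx1 reads, and single cells set many ratios. The limits of 10 counts and of 5 CPM gave the same 5 and 13 cells. The hemogenic median of all 18 cells was 0.26 to 0.53 with any 1 cell left out, and in the 6 cells of neither kind it was -0.20 without runx1 cell 1. No paired analysis was possible because the embryo that each floor cell of 21 hpf came from is not stated.

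Genes at least 2-fold higher in the runx1 cells numbered 2219, but 3333 in raw sums and 1318 with a minimum of 30 reads, and 1955 to 2330 with 1 cell left out. Lower ones numbered 2759, but 4446 in raw sums, and 2622 to 2958 with 1 cell left out. More genes were measured in raw sums and fewer with the higher minimum. The arterial and Notch median of -1.29 was 0.10 with 1 or more runx1 counts against 0, -2.96 without cells of over 1% erythroid counts, 0.78 without the 4 cells of roof-like endothelial share, -0.22 in the 6 cells of neither kind, -2.09 without globin-high cells and -2.86 to -0.74 with 1 cell left out. Under the last 5 settings in that order, the pan-endothelial median of -0.48 was -1.64, 0.91, 0.17, -1.25 and -3.03 to 0.26. The erythroid median of -1.16 was -1.83 in the 6 cells of neither kind and -4.72 to -0.82 with 1 cell left out. Without cells of over 1% erythroid counts, a choice made by counts of the same list, it was 3.44. The BMP median was 0.25 without the cells of roof-like endothelial share.

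Of 73 named genes at least 2-fold apart, 20 changed sign under at least 1 setting, and of 26 within 2-fold, 22 did. The log2 ratios of the 20 are given by setting, with a side of no read set to 3 reads. With 1 or more runx1 counts against 0 they were 3.09 for stab1, 0.59 for her15.1, 1.59 for nufip2, 0.20 for gata1a and 0.81 for jun, and with cells of 1 to 4 counts left out 1.08 for stab1. In the 6 cells of neither kind they were 0.28 for dll4, 2.94 for cdc6, 0.74 for pola1, -1.83 for kdrl, -1.16 for mmp2, -5.15 for notch1a and 4.32 for mllt3. In raw sums notch1a was at -0.14. Without cells of over 1% erythroid counts they were 0.10 for pgam1a, 2.00 for ENSDARG00000096331, -1.07 for id3, -0.28 for etv2, -0.62 for arhgef7b and -1.89 for socs3a. Without cells of roof-like endothelial share they were -3.89 for notch1a, 1.60 for dll4, -0.17 for mmp2, -1.20 for kdrl and 0.95 for notch1b. Without globin-high cells they were 0.35 for cdc6 and 0.91 for mllt3. With 1 cell left out, the ranges were -4.16 to 2.82 for etv2, -3.67 to 2.58 for kdrl, -5.41 to 2.60 for notch1a, -4.85 to 1.94 for dab2, -1.26 to 2.15 for mmp2, -0.21 to 2.07 for id3, -3.86 to 1.21 for stab1 and -5.59 to 0.067 for cdc6. Cell 6 reversed the first 5, and cells 4, 18 and 15 reversed id3, stab1 and cdc6. The cause of these changes was not tested.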
